A study of Mus musculus with 2 samples.

Results

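The Mir17 to Mir92-1 cluster is a run of 6 miRNA hairpin genes on mouse chromosome 14, and all 6 were read in the embryonic facial prominence, from which face and jaws form. Its genes, in order along the chromosome, are Mir17, Mir18, Mir19a, Mir20a, Mir19b-1 and Mir92-1, also known as miR-17, miR-18a, miR-19a, miR-20a, miR-19b-1 and miR-92a-1. They were taken by their Ensembl gene identifiers from the 1973 miRNA genes of the deposited count tables. The study sequenced small RNA from healthy B6NCrl embryos at 15.5 days, males and females pooled, with no treatment and no altered allele named in the labels. The 2 libraries form 1 group. Replicate 1 pooled 78 embryos and replicate 2 pooled 62. Each value is therefore an average over many animals and over all cell types of the tissue, so that fewer cells of a type and less RNA per cell cannot be told apart.

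The 6 hairpins are cut from 1 primary transcript, the host RNA Mir17hg, by the nuclear enzyme Drosha, and Dicer then releases the mature miRNAs of about the length sequenced here. A mature miRNA pairs with target mRNAs mainly through its seed, the bases near its 5′ end, so members with the same seed share many targets. The cluster is known for promoting proliferation and survival and is driven by Myc and E2F factors. The miR-17 seed is known to restrain the cell cycle inhibitor p21 and parts of TGF-beta signalling. Loss of the cluster in mice is known to cause defects of lung, heart, B cells and skeleton and clefts of the lip and palate, and loss of 1 human copy causes Feingold syndrome.

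The mature sequences that carry the cluster's seeds are shown here because the members fall into groups by them. They come from RefSeq on GRCm38.p6, the build also called mm10, and the capitals mark the seed, bases 2 to 8 from the 5′ end.
miR-17-5p: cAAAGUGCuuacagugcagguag
miR-20a-5p: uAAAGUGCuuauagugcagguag
miR-18a-5p: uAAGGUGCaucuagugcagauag
miR-19a-3p: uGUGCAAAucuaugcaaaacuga
miR-19b-3p: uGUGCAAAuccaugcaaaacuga
miR-92a-3p: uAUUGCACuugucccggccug

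The 6 genes thus carry 4 seeds. Mir17 and Mir20a share AAAGUGC, and their 5p arms differ by C1U and C12U, counted from the 5′ end of miR-17-5p. Mir18 has AAGGUGC, which differs from the miR-17 seed by A4G. The 3p arms of Mir19a and Mir19b-1 share GUGCAAA and differ by U11C only, counted from the 5′ end of miR-19a-3p. Mir92-1 stands alone in the cluster with AUUGCAC.

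The hairpins lie within 836 bases on the plus strand of mm10, at chr14:115043671-115044506. Each overlaps an exon annotated for the long noncoding RNA Mir17hg at chr14:115042879-115046727. Mir17 lies at chr14:115043671-115043754, Mir18 at chr14:115043851-115043946 and Mir19a at chr14:115044000-115044081. Mir20a follows at chr14:115044157-115044263, Mir19b-1 at chr14:115044305-115044391 and Mir92-1 at chr14:115044427-115044506. The hairpins are 80 to 107 bases long, and 35 to 96 bases separate neighbours. Their base composition is alike, with 43.7% to 47.5% G and C.

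The libraries assigned 2978463 reads (replicate 1) and 6408008 reads (replicate 2) to miRNA genes, so counting error is smaller in replicate 2. Reads that mapped to several places, which the deposited counts give to no gene, made up 30.6% and 29.7% of each library. The marker miRNAs fixed for epithelium, mesenchyme, cartilage and endothelium were all detected, meaning at least 10 reads in each library, and those of skeletal muscle were detected in 2 of 3. The 3 counted blood markers and the liver marker Mir122 were detected as well. Detection of a marker also rests only on reads placed at 1 locus. All 6 cluster genes passed this filter, Mir19b-1 with the fewest reads.

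Together the cluster held 65377 reads placed at 1 locus in replicate 1, which is 2.19% of the assigned reads (95% Clopper-Pearson interval 2.18 to 2.21). It held 146788 reads in replicate 2, or 2.29% (2.28 to 2.30). Levels are given in CPM, assigned reads over the library size times 1000000, where TMM factors align the library sizes. The summed level was 21873 CPM (replicate 1) and 22987 CPM (replicate 2), with a mean of 22430.2 ± 787 CPM (SD, n = 2). No read of any of the 6 genes, or of the 9 paralogs described below, lay on the opposite strand. For the cluster this allows up to 0.00459% of its reads in replicate 1 and 0.00204% in replicate 2. Over all genes 3.30% and 3.36% of reads lay there. These came in part from genes read only on that strand, such as Gm25301 with 31964 and 68974 reads. Such limits and intervals cover counting error only.

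The genes with the miR-17 seed led the cluster. Mir17 stood at 12059 CPM in replicate 1 (36042 reads) and 13968 CPM in replicate 2 (89198 reads), a mean of 13014 ± 1350.4 CPM (SD, n = 2). It ranked 21 of 1973 genes by mean level. Mir20a stood at 4333 and 4482 CPM, a mean of 4408 ± 105 CPM (SD, n = 2), from 12952 and 28621 reads. The level of Mir17 exceeded that of Mir20a by factors of 2.78 (replicate 1) and 3.12 (replicate 2). The hairpins come from the same transcript and their 5p arms differ at 2 of 23 bases. Whether library preparation captured different sequences equally was not tested, so ratios between genes are ratios of reads.

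Mir18, whose product is known to share some targets with the miR-17 group, stood at 2828 CPM in replicate 1 (8452 reads) and 2304 CPM in replicate 2 (14715 reads). Its mean was 2566 ± 370.1 CPM (SD, n = 2). Mir92-1, the last hairpin of the transcript, stood at 2597 CPM in replicate 1 (7762 reads) and 2189.7 CPM in replicate 2 (13983 reads), a mean of 2393 ± 288 CPM (SD, n = 2). By reads placed at 1 locus, the means of Mir18 and Mir92-1 differed by 173 CPM, less than the SD of either gene. Both genes were higher in replicate 1, so these SDs also hold a shift between the libraries that they share. Within each library Mir18 exceeded Mir92-1, by factors of 1.09 (replicate 1) and 1.05 (replicate 2).

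By reads placed at 1 locus, the genes with the miR-19 seed were the lowest by a wide margin. Reads of miR-19b-3p that map to several places are not in these counts. Whether reads of miR-19a-3p were set aside likewise was not tested, so the total output of both genes is uncertain. Mir19a stood at 47.8 CPM in replicate 1 (143 reads) and 33.0 CPM in replicate 2 (211 reads), a mean of 40.4 ± 10.5 CPM (SD, n = 2). Mir19b-1 stood at 8.70 and 9.40 CPM, a mean of 9.05 ± 0.493 CPM (SD, n = 2), from 26 and 60 reads. The level of Mir17 was 252 times that of Mir19a in replicate 1 and 423 times in replicate 2, and 1386 and 1487 times that of Mir19b-1. Mir19a and Mir19b-1 both lie between hairpins of the same transcript with at least 7762 reads in each library.

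By reads placed at 1 locus, the order of the genes by level was Mir17, Mir20a, Mir18, Mir92-1, Mir19a and Mir19b-1 in each replicate. The places of Mir92-1 and Mir19b-1 are uncertain, because reads of theirs that map to several places are not counted. Of neighbours in this order, only Mir18 and Mir92-1 did not differ by more than the sum of their SDs over the replicates. A small RNA read spans a whole mature miRNA, so a count is not spread along the gene as in mRNA sequencing. When the CPM was divided by hairpin length all the same, Mir17 had 155 CPM per base, Mir20a 41.2, Mir92-1 29.9, Mir18 26.7, Mir19a 0.493 and Mir19b-1 0.104, so only Mir18 and Mir92-1 changed places. The level by these placed reads did not follow the position along the transcript, where the third and the fifth hairpins were the lowest.

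**Figure D1:**
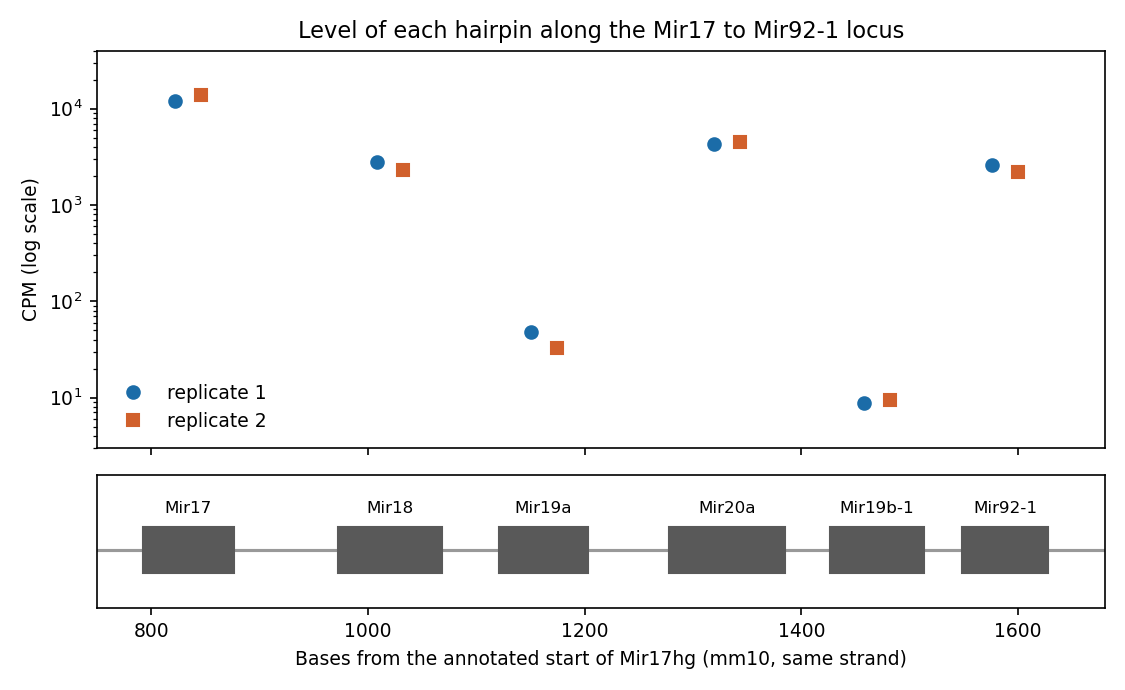
Level of the 6 hairpins, with CPM on a log axis above and the position of each hairpin in bases from the annotated start of Mir17hg below. Circles are replicate 1 and squares replicate 2, drawn side by side at the middle of each hairpin. Mir19a and Mir19b-1 lie below 50 CPM, while the other 4 genes lie between 2189.7 and 13968 CPM. Levels hold reads placed at 1 locus.

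The make-up of the cluster was then compared between the libraries by the share of each gene in its 65377 and 146788 reads. These are reads placed at 1 locus. Reads of miR-92a-3p and miR-19b-3p that map to several places are not among them, so shares of the total output are uncertain. Mir17 supplied 55.1% in replicate 1 (95% Clopper-Pearson interval 54.7 to 55.5) and 60.8% in replicate 2 (60.5 to 61.0). The share of Mir20a was 19.8% (19.5 to 20.1) and 19.5% (19.3 to 19.7), and these intervals overlap. Mir18 supplied 12.9% (12.7 to 13.2) and 10.02% (9.87 to 10.2), and Mir92-1 11.9% (11.6 to 12.1) and 9.53% (9.38 to 9.68), both smaller in replicate 2 beyond counting error. Mir19a supplied 0.219% (0.184 to 0.258) and 0.144% (0.125 to 0.164), and Mir19b-1 0.0398% (0.0260 to 0.0583) and 0.0409% (0.0312 to 0.0526). Shares of one whole are tied to each other, so a larger share of Mir17 lowers the rest.

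**Figure D2:**
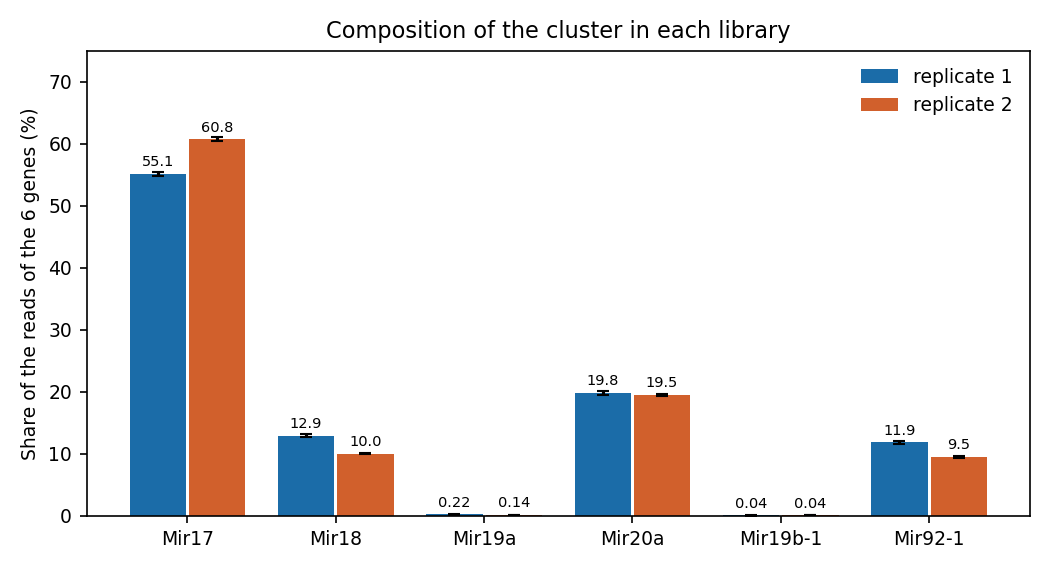
Share of each gene in the summed reads of the 6 cluster genes, in percent, for replicate 1 (left bars) and replicate 2 (right bars), with 95% Clopper-Pearson intervals as error bars. Mir17 takes 55.1% in replicate 1 and 60.8% in replicate 2, Mir18 and Mir92-1 are smaller in replicate 2, and the bars of Mir20a are nearly level. Shares are of reads placed at 1 locus.

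Between the libraries the summed cluster differed little, while its genes differed in opposite directions. The summed level had a log2 ratio of 0.07 toward replicate 2 (95% interval 0.06 to 0.08). Each gene's reads were compared with a two-sided exact binomial test, adjusted by the Benjamini-Hochberg method over all 333 genes with at least 10 reads in each library. Of the 6 cluster genes, 2 were called higher in replicate 2 (over all tested genes, 25.8% were), 3 were called higher in replicate 1 (27.6%) and 1 was not called. In either direction 53.5% of all tested genes were called. Where at least 5000 reads in each library stood behind a gene, as for 4 of the cluster genes, the share called was 86.6% of 82 genes, so a call at this depth is common. The test compares these libraries, not populations of embryos, and has no replicate check, because 1 library stands on each side.

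Mir17 was higher in replicate 2, with a log2 ratio of 0.21 (95% interval 0.19 to 0.23, exact binomial adjusted p = 6.03e-124). Mir20a was also higher there, by only 0.05 (0.02 to 0.08, exact binomial adjusted p = 0.00313). Mir18 was higher in replicate 1, with a log2 ratio of −0.30 (−0.33 to −0.26, exact binomial adjusted p = 5.58e-49). Mir92-1 was higher in replicate 1 as well, at −0.25 (−0.29 to −0.21, exact binomial adjusted p = 4.17e-32). The intervals of Mir17 and Mir20a, which carry the same seed, did not overlap, and those of Mir18 and Mir92-1 did.

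Mir19a had the largest log2 ratio of the cluster, −0.53 toward replicate 1 (−0.85 to −0.22, exact binomial adjusted p = 0.00172), from 143 and 211 reads. Mir19b-1 had a log2 ratio of 0.11 with an interval of −0.58 to 0.83 (exact binomial adjusted p = 0.875). At its depth the interval does not exclude a difference of 1.5-fold toward replicate 2. No cluster gene differed by more than 1.5-fold, against 10.8% of all tested genes. The median log2 ratio over the 6 genes was −0.10 and its median size 0.23, beside −0.02 and 0.20 over all tested genes. The ratio of Mir17 to Mir18 was 4.26 in replicate 1 and 6.06 in replicate 2, and that of Mir17 to Mir92-1 was 4.64 and 6.38.

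The cell type markers also differed between the libraries. Their reads that map to several places are not counted, and how many were set aside was not tested, so the sums do not rank the cell types. The 7 epithelial genes summed to 152004 CPM (replicate 1) and 128519 CPM (replicate 2), the 4 mesenchymal genes to 18085 and 16571 CPM, and the 2 cartilage genes to 15363 and 14409.9 CPM. The 3 skeletal muscle genes summed to 7941 and 5967 CPM, and the endothelial Mir126a stood at 24156 and 28414 CPM. The 3 counted blood genes summed to 685 and 746 CPM, and the liver miRNA Mir122 stood at 30.4 and 70.0 CPM. No counted marker was at 0 in both libraries, and the part of tissue make-up in the differences of the cluster genes was not tested.

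**Figure D3:**
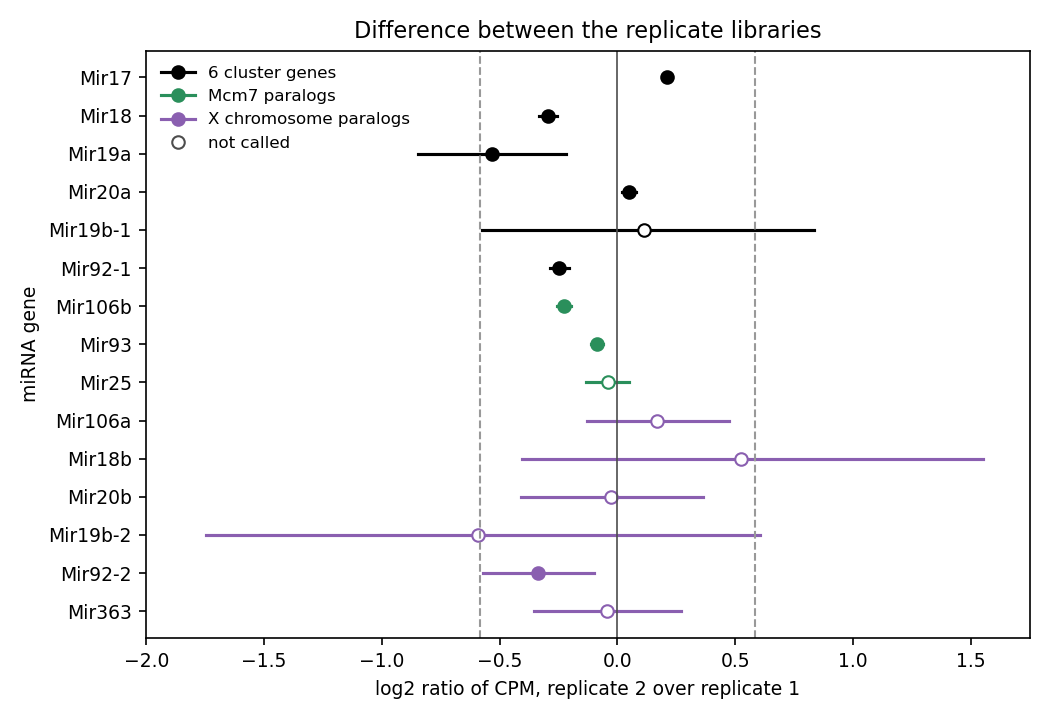
Log2 of the CPM ratio between the libraries (replicate 2 over 1) for the 6 cluster genes and 9 paralogs, with 95% exact binomial intervals as lines. Filled points were called by the exact binomial test, open points were not, and dashed lines mark 1.5-fold. Mir17 lies right of 0 at 0.21, while Mir18, Mir19a and Mir92-1 lie left of it.

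The cluster has paralogs in 2 other places, which carry the same seeds and can partly stand in for it. Mir106b, Mir93 and Mir25 lie on the minus strand of chromosome 5 within Mcm7, a gene of the replication helicase. Mir106b, at chr5:138165737-138165818, is intronic, and Mir93 and Mir25 overlap an exon of 1 of the 3 Mcm7 transcripts that span them. Mir106a, Mir18b, Mir20b, Mir19b-2, Mir92-2 and Mir363 lie within 1 kilobase on the X chromosome. The summed level of the Mcm7 genes was 11854 CPM (replicate 1) and 10745 CPM (replicate 2), and that of the X chromosome genes 203 and 190.4 CPM. By reads placed at 1 locus, the level of the chromosome 14 cluster was 1.85 times the Mcm7 sum in replicate 1 and 2.14 times in replicate 2. It was 108 and 121 times the X chromosome sum.

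All 9 paralogs passed the filter. None was called higher in replicate 2 (over all tested genes, 25.8% were), 3 were called higher in replicate 1 (27.6%) and 6 were not called. Mir106b had the clearest difference, at 4916 and 4202 CPM, with a log2 ratio of −0.23 (−0.26 to −0.20, exact binomial adjusted p = 5.07e-51). Mir93 stood at 6449 and 6068 CPM, with −0.09 (−0.11 to −0.06, exact binomial adjusted p = 2.31e-11). Mir17 was thus higher in replicate 2 while these genes of the same seed were higher in replicate 1, with intervals that did not overlap. Mir92-2 was the third, at 79.3 and 62.8 CPM with a log2 ratio of −0.34 (−0.57 to −0.10), near that of Mir92-1. Mir25 stood at 489 and 475 CPM and was not called (−0.04, −0.13 to 0.05).

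The X chromosome counterparts of cluster genes were lower throughout. Mir106a stood at 44.2 and 49.6 CPM. By reads, the level of Mir17 was 273 times that of Mir106a in replicate 1 and 281 times in replicate 2. The mature miR-17-5p and miR-106a-5p differ by U10A only. Mir20b stood at 28.1 and 27.6 CPM, 154-fold and 163-fold below Mir20a. Mir18b, with 13 and 40 reads, stood at 4.35 and 6.26 CPM. Mir363, which has the miR-92a seed, stood at 42.8 and 41.5 CPM.

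For 2 cluster genes the seed-bearing arm has an exact copy on the X chromosome, which bears on what their counts can hold. Among 1005 mouse hairpins of RefSeq, miR-92a-3p occurs in Mir92-1 and Mir92-2, and miR-19b-3p in Mir19b-1 and Mir19b-2. Every other mature sequence of the 6 genes that RefSeq lists, 9 in all, occurs in 1 hairpin. The 4 hairpins are printed 5′ to 3′ to show how far each copy reaches, with the longest run shared by the copies in capitals.
Mir92-1: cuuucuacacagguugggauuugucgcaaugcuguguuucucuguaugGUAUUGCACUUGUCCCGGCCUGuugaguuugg
Mir92-2: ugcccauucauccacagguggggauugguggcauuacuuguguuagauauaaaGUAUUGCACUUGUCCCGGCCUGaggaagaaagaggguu
Mir19b-1: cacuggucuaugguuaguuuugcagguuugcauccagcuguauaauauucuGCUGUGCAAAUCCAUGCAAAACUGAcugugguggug
Mir19b-2: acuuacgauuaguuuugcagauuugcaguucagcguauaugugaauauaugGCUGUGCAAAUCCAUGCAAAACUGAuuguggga

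The shared run is 22 bases in the Mir92 hairpins and 25 bases in the Mir19b hairpins. The first base after miR-92a-3p already differs between the copies (U22A, counted from the 5′ end of miR-92a-3p), and so does the first base after miR-19b-3p (C24U, counted likewise). A read that ends within the shared run matches both copies and is given to neither. A read that runs past it, or that comes from the 5p arm, can be placed. Whether each read that runs past it was placed at the copy it came from was not tested. The counts do not separate arms or read ends. Mir92-1 nevertheless stood 32.8-fold above Mir92-2 in replicate 1 and 34.9-fold in replicate 2. Mir19b-1 stood 2.17-fold above Mir19b-2 in replicate 1 (26 and 12 reads) and 3.53-fold in replicate 2 (60 and 17 reads). The levels of Mir92-1 and Mir19b-1 therefore hold for reads placed at 1 locus, and their total output is uncertain. Reads mapping to several places numbered 27.4 and 28.5 times the reads of the whole cluster, and the part of miR-92a or miR-19b in them was not tested.

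For Mir19a no exact copy was found. Its listed mature sequence occurs in 1 hairpin, and the longest run its hairpin shares with any other is 13 bases, the same as for Mir17. Its mature sequence differs from miR-19b-3p, which has 2 loci, by U11C only, and whether reads of miR-19a-3p were set aside as mapping to several places was not tested. Mir18 shares at most 17 bases, with Mir18b, and Mir20a at most 17.

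All counted genes that carry a seed of the cluster were then summed, over reads placed at 1 locus. Reads of miR-92a-3p and miR-19b-3p that match both copies are not in these sums, so the totals and shares of the miR-92a and miR-19 seeds are uncertain. Both arms of a hairpin enter its count, so the sums are of genes, not of single arms. The 7 counted genes with the miR-17 seed summed to 27829 CPM (replicate 1) and 28798 CPM (replicate 2), of which Mir17 and Mir20a made up 58.9% and 64.1%. Mir93 and Mir106b held nearly all of the rest, and Mir6383, also of this seed, had no read. Mir18 held 99.8% and 99.7% of the miR-18 seed. The miR-19 seed summed to only 60.6 and 45.1 CPM over 3 genes, of which Mir19a and Mir19b-1 made up 93.4% and 94.1%.

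The miR-92a seed summed to 4015 CPM (replicate 1) and 4030.4 CPM (replicate 2) over 7 counted genes, nearly the same in both libraries for reads placed at 1 locus. Of these placed reads Mir92-1 supplied 64.7% in replicate 1 and 54.3% in replicate 2. Mir92b, which lies outside the clusters, stood at 653 and 1133 CPM and was higher in replicate 2, at a log2 ratio of 0.79 (0.72 to 0.87, exact binomial adjusted p = 1.08e-112), opposite to Mir92-1. Mir32 stood at 154 and 129 CPM, and Mir367 had no read in either library. The miR-18 and miR-19 sums were lower in replicate 2, and the miR-17 sum was slightly higher.

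**Figure D4:**
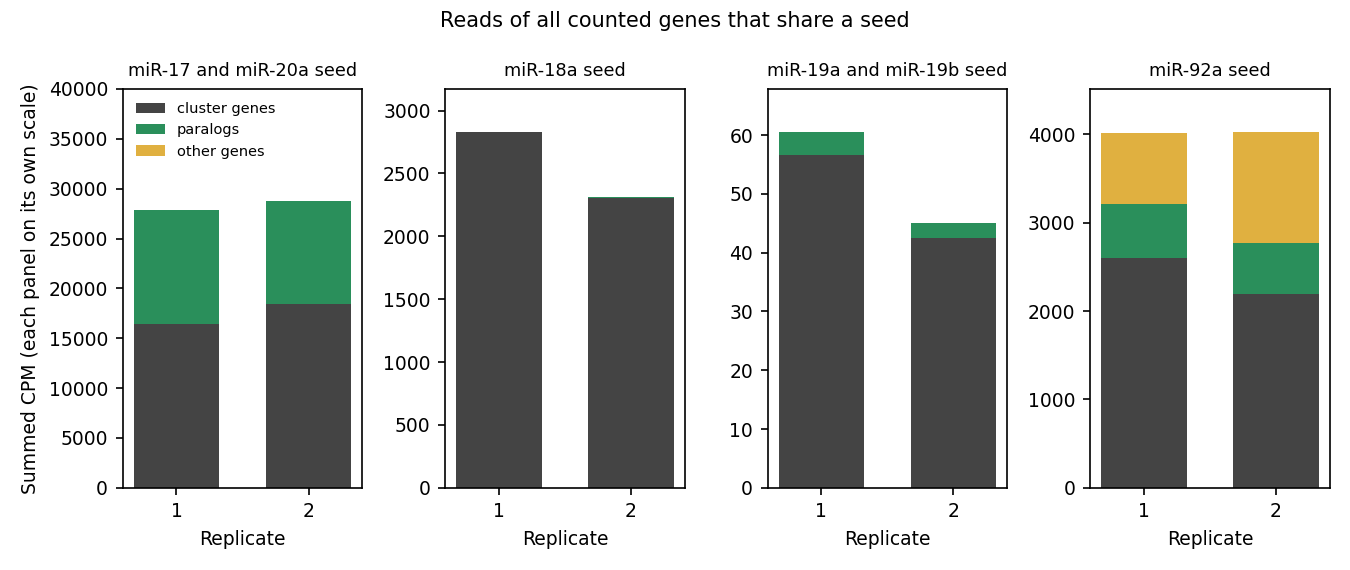
Summed CPM of all counted genes that share each of the 4 seeds of the cluster, for replicates 1 and 2, split into cluster genes, paralogs on chromosomes 5 and X, and other genes. Each panel has its own axis from 0. Sums hold reads placed at 1 locus. The miR-92a panel has nearly equal totals with a smaller part from Mir92-1 in replicate 2 (54.3% against 64.7%), and the miR-19 panel stays below 61 CPM.

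The detected genes outside the clusters with the most similar levels were found by the distance over log2 CPM in the 2 replicates. Nearest to Mir17 was Mirlet7d (13905 ± 454 CPM), nearest to Mir20a was Mir181c (4415 ± 194 CPM), and Mir541 (2499.8 ± 120.4 CPM) was nearest to both Mir18 and Mir92-1. Mir3099 (42.4 ± 9.18 CPM) was nearest to Mir19a and Mir3066 (9.62 ± 0.352 CPM) to Mir19b-1 (all SD, n = 2). With 2 libraries this says only that the levels lie close.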

How the data were processed

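Per the deposited file lists, the count tables hold unnormalized reads for each miRNA gene of GENCODE M4 on mm10. Reads were counted on either strand, on the gene's strand and on the opposite strand, and reads mapping to several places were given to no gene. Which aligner and counter the authors ran is not given in the sources used here.

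Symbols, positions and host exons came from GENCODE M21 on the same build, where 1894 of 1973 gene identifiers matched, and all 6 cluster genes and 9 paralogs had the same version. Mature and hairpin sequences came from RefSeq (GRCm38.p6). Counts on either strand were scaled by TMM from genes with at least 10 reads in each library (edgeR 4.0.16, R 4.3.3). SDs are over 2 replicates. The exact binomial test, with a threshold of 0.05 after Benjamini-Hochberg adjustment, ran over all 333 such genes, 186 of which had an unadjusted p under 0.05. It was tested on simulated data that held counting error only, which cannot show how it behaves with other variation between libraries. A quasi-likelihood test needs residual degrees of freedom, which 1 library on each side does not leave. Reads carried no molecular identifiers named in the labels, so they are not independent molecules. Other software was scipy 1.17.1 and pandas 2.3.3 under Python 3.11.15, with matplotlib 3.10.9 for figures.

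The genes named are the 6 members, their 9 paralogs, other genes of the same seeds and the nearest gene by level. Members, lists and tests were chosen with earlier results of these data known. The share called at 5000 reads was added after the values were seen.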

Additional observations from a re-analysis of the deposited data

How the results depend on the processing

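The log2 ratios of the 6 cluster genes kept their direction and their side of the threshold in all 35 values from the alternatives. These were library totals without TMM, DESeq2 1.42.0 size factors, no filter on low counts, a minimum of 100 reads (not met by Mir19b-1), the gene's strand only, and totals without the most abundant gene. The filter settings leave each log2 ratio as it was, so they check the calls and not the direction. On the gene's strand the reads of the cluster genes were the same, so only library sizes and the tested genes changed. Of the paralogs, only Mir20b changed sign, to 0.00025 with DESeq2 size factors, and it was not called in either case. The summed level of the cluster moved beyond its SD only with totals that lack the most abundant gene (24358 CPM). Leaving out a replicate returns the value of the other (21873 or 22987 CPM), which with n = 2 cannot lie beyond the SD. Genes called over the whole table ranged from 73 to 95 (higher in replicate 2) and from 83 to 95 (higher in replicate 1). No scaling moved the median log2 ratio by more than 0.03. The depth limits Mir19b-1, Mir19b-2 and Mir18b most, each with under 100 reads in each library. Mir20b fell under 100 reads in replicate 1 only (84 reads). No paired analysis was possible because there is 1 group with 1 library per replicate number.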
